A study of Homo sapiens with 15 samples.

Results

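The genes described here are 32 genes of cholesterol and fatty acid synthesis with their control and transport genes, chosen by name: the enzymes that make sterols, the proteins that control the SREBP transcription factors, sterol transport proteins and the main lipogenic enzymes. Of the 32, 29 had a probe set naming them alone, on 63 of the 54675 probe sets of the array. FDFT1, CYP51A1 and FADS1 had none, and MVD, mevalonate diphosphate decarboxylase, lay below the filter on dim probe sets, with signals of 3.7 to 20.1. The remaining 28 genes were tested among 11774, each through its brightest probe set. RNA came from IMR32, an established neuroblastoma line, measured on Affymetrix U133 arrays at 0, 8, 24, 48 and 72 h after doxycycline, with 3 arrays per time and 15 in all. Every array came from 1 IMR32 clone that carries the tetracycline repressor behind the CMV promoter (pcDNA6/TR) and a hairpin against CDK2, a cyclin-dependent kinase of the cell cycle, in the vector pTER. Doxycycline at 100 ng/ml in medium with 10% fetal calf serum switched the hairpin on. The 0 h arrays are the controls. No arm with another hairpin or without doxycycline at the later times was analysed here, so knockdown, doxycycline and time in culture cannot be told apart. The time labels carry no unit, and hours are what is known of the study. The labels also do not say that the arrays of a time came from separate cultures. The p-values therefore measure the spread between arrays, which may be technical.

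Cells make cholesterol from acetyl-CoA through mevalonate, isoprenoids, squalene and lanosterol. When sterols in the endoplasmic reticulum run low, SCAP carries the SREBP precursors to the Golgi for cleavage, and the freed factors switch on the synthesis genes. INSIG proteins hold SCAP back when sterols are plentiful. SREBF2 encodes the form that mainly drives sterol genes, and SREBF1 the form that mainly drives fatty acid genes.

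The targeted gene, CDK2, had a mean signal of 231.7 at 0 h and 94.5, 80.4, 48.6 and 30.1 at the later times. All values are MAS5 signals, a linear brightness scaled by the authors to the same trimmed mean on every array (100.01), and the median signal per array was 15 to 20.5. Of the neuroblastoma markers PHOX2A, HAND2, ISL1, GATA3, DBH and MYCN were above 78 on every array, whereas TH was near background (0.5 to 9.5). Of 15 markers of fibroblasts, epithelium, immune cells and endothelium, COL1A1 had signals of 197.7 to 425.3 and the other 14 reached at most 33.1. The replicate 3 arrays at 8 h and 72 h stood apart from their groups chiefly in weight. Limma gave them the lowest array weights (0.405 and 0.356), and the next lowest was 0.555, of 24 h replicate 3. Their mean correlations with their own group were 0.977 and 0.981, little below those of the other arrays (0.983 for both at 8 h, 0.984 and 0.985 at 72 h). The main counts are given with and without the replicate 3 arrays at 8 h and 72 h.

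At 72 h, 14 of the 28 genes (50%) differed from 0 h at an adjusted p under 0.05 (limma with Benjamini-Hochberg adjustment over all 11774 genes), beside 55.5% of all genes. Of these, 6 were higher and 8 lower, where 32.8% of all genes were higher and 22.7% lower. The share called was thus near that of all genes. By role, most of the sterol enzymes called were lower, and the other groups hold too few genes to show a direction. The role groups were set with earlier results of these data known. Among 15 sterol enzymes 7 were lower and 1 higher, with a median log2 change of -0.33, while the median over all genes was 0.10. Among 5 genes of SREBP control 3 were higher and none was lower, with a median of 0.50. Among 3 transport genes 1 was higher, and among 5 lipogenic genes 1 was higher and 1 lower. After centring of each array on its median, which took the median of all genes from 0.103 to -0.014, 4 of the 28 were higher and 10 lower, and higher genes made up 45.7% of all genes called in place of 59.1%. Changes are on the scale log2(signal + 16), which understates the change of dim probe sets. All 3 values at 72 h lay above all 3 at 0 h for 7 of the 28 genes and below them for 7, beside 36.3% and 25.1% of all genes.

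**Figure D1:**
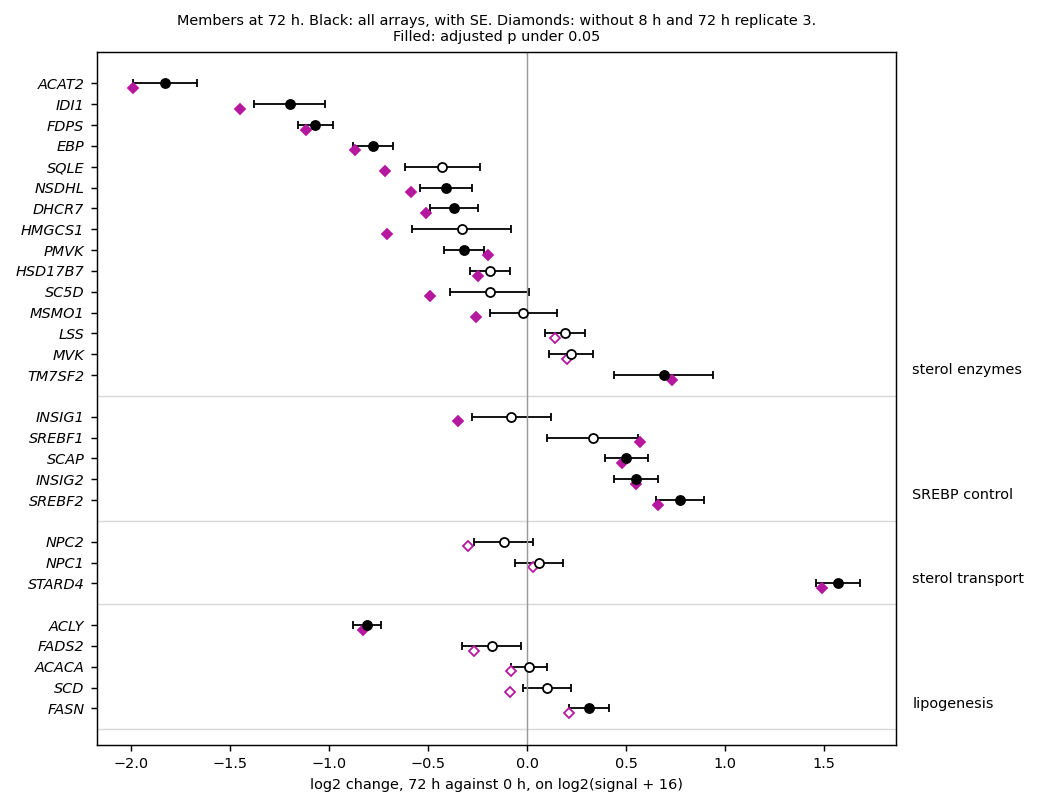
Log2 change of each of the 28 tested genes at 72 h against 0 h, by role; black points with bars are the fit on all 15 arrays with its standard error, diamonds the fit without replicate 3 at 8 h and 72 h, and filled symbols have an adjusted p under 0.05. ACAT2 at -1.83 and STARD4 at 1.57 mark the ends, and for HMGCS1, SQLE, SC5D, MSMO1, HSD17B7, INSIG1 and SREBF1 the diamonds are filled where the black points are open, with FASN the other way round.

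Of the sterol enzymes the greatest fall was in ACAT2, the cytosolic thiolase that joins acetyl-CoA units at the entry of the pathway. Its signals at 0 h were 692.7, 797.8 and 1147.3, at 8 h 719.8, 729.7 and 960.7, and at 24 h 542.5, 611.2 and 540.4. They were 305.4, 315.1 and 293.8 at 48 h and 197.1, 211.1 and 289.6 at 72 h. The arrays at 24, 48 and 72 h all lay below every array at 0 h. The log2 change was -0.59 at 24 h (standard error 0.16, limma adjusted p 0.018), -1.45 at 48 h (0.16, 9.6e-07) and -1.83 at 72 h (0.16, 2.2e-08), a fall to 232.6 ± 49.9 from 879.3 ± 238.0 (SD, n = 3). The call at 24 h was lost without 0 h replicate 3 (-0.39, adjusted p 0.10 by limma), the highest array of the gene, and without 24 h replicate 1 or 3 (-0.57 and -0.56).

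Isoprenoid enzymes came next. IDI1, isopentenyl diphosphate isomerase, had signals of 844.3, 899.4 and 961.0 at 0 h, 496.4, 487.3 and 492.7 at 48 h, and 378.3, 269.9 and 545.4 at 72 h. All arrays at 48 and 72 h lay below those at 0 h, with 72 h replicate 3 the highest of its time. The change was -0.85 at 48 h (standard error 0.18, limma adjusted p 0.0011) and -1.20 at 72 h (0.18, 2.6e-05). FDPS, which makes farnesyl diphosphate for sterols and prenylation, had 2284.3, 2285.0 and 2692.8 at 0 h, 1489.1, 1539.5 and 1375.6 at 48 h and 1098.9, 1103.8 and 1237.5 at 72 h. Its arrays fell at each of these times with no overlap, by -0.71 (standard error 0.09, limma adjusted p 4.4e-06) and -1.07 (0.09, 1.5e-08) against 0 h.

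EBP, the sterol isomerase known as emopamil binding protein, had 584.9, 556.4 and 636.5 at 0 h, 447.4, 424.3 and 420.9 at 48 h and 300.1, 333.5 and 386.1 at 72 h. The 3 times did not overlap. Its changes against 0 h were -0.44 at 48 h (standard error 0.10, limma adjusted p 0.0015) and -0.78 at 72 h (0.10, 3.2e-06). ACLY, the citrate lyase that supplies cytosolic acetyl-CoA to both sterol and fatty acid synthesis, had 2715.8, 2683.6 and 2512.2 at 0 h, 1934.4, 2025.1 and 1893.8 at 48 h and 1470.5, 1474.3 and 1531.8 at 72 h. Its changes were -0.43 (standard error 0.07, limma adjusted p 1.4e-04) and -0.81 (0.07, 4.8e-08), again with no overlap between the 3 times.

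Smaller falls at 72 h were seen in PMVK, NSDHL and DHCR7. PMVK, phosphomevalonate kinase, had 576.0, 591.5 and 650.2 at 0 h and 526.6, 520.1 and 408.3 at 72 h (log2 change -0.32, standard error 0.10, limma adjusted p 0.0086). Here 72 h replicate 3 was the lowest array, and without it the change was -0.20 (limma adjusted p 0.058), although the fit without replicate 3 at both 8 h and 72 h called it. DHCR7, the last reductase before cholesterol, had 194.4, 187.0 and 208.6 at 0 h and 136.3, 130.2 and 182.6 at 72 h (-0.37, standard error 0.12, limma adjusted p 0.011), and without 72 h replicate 1 or 2 the change was -0.32 and -0.29 (limma adjusted p 0.051 and 0.065). NSDHL, a sterol dehydrogenase of C4 demethylation, had 248.9, 257.0 and 294.3 at 0 h and 165.3, 177.6 and 257.7 at 72 h (-0.41, standard error 0.13, limma adjusted p 0.014). Its groups overlapped through 72 h replicate 3, and the call was lost without 0 h replicate 3 (-0.34), 72 h replicate 1 (-0.29) or 72 h replicate 2 (-0.34).

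TM7SF2, a sterol reductase, was the sterol enzyme called higher at 72 h. Its signals were close to background throughout, 13.6, 14.5 and 21.9 at 0 h, 41.9, 53.3 and 27.0 at 48 h and 41.1, 34.8 and 33.4 at 72 h, with no overlap with 0 h at either time. The change was 0.78 at 48 h (standard error 0.25, limma adjusted p 0.017) and 0.69 at 72 h (0.25, 0.026). Without 0 h replicate 1 or 2 the 72 h change was 0.62 and 0.64 (limma adjusted p 0.080 and 0.073), without 72 h replicate 1 it was 0.63 (0.078), and the 48 h call was lost without 0 h replicate 1 or 2 or 48 h replicate 2 (0.71, 0.73 and 0.62). After centring or quantile normalisation the 72 h change was 0.57 and not called, and 0 sterol enzymes were then higher, with 9 lower after centring and 7 after quantile normalisation. Its size moved with the pseudocount, from 0.32 at 64 to 1.11 at 1. TM7SF2 had a mean signal of 16.67 at 0 h, close to the filter near 16.6, beside 24.93 at 24 h, 40.73 at 48 h and 36.43 at 72 h. The filter used these later arrays too, so a gene as dim at 0 h that did not rise might not have entered. MVK, mevalonate kinase, was called higher at 48 h alone: 93.2, 91.2 and 99.5 at 0 h, 122.0, 113.3 and 124.9 at 48 h and 111.8, 109.4 and 116.0 at 72 h (0.30 at 48 h, standard error 0.11, limma adjusted p 0.036). That call was lost without 0 h replicate 1 or 2 (0.29 and 0.28) or 48 h replicate 1 or 3 (0.29 and 0.27), and after centring (0.20) or quantile normalisation (0.21). LSS, lanosterol synthase, had 506.2, 502.3 and 664.6 at 0 h and 618.9, 605.4 and 675.4 at 72 h, a change of 0.19 that was not called, and that reached 0.32 (limma adjusted p 0.011) without 0 h replicate 3.

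**Figure D2:**
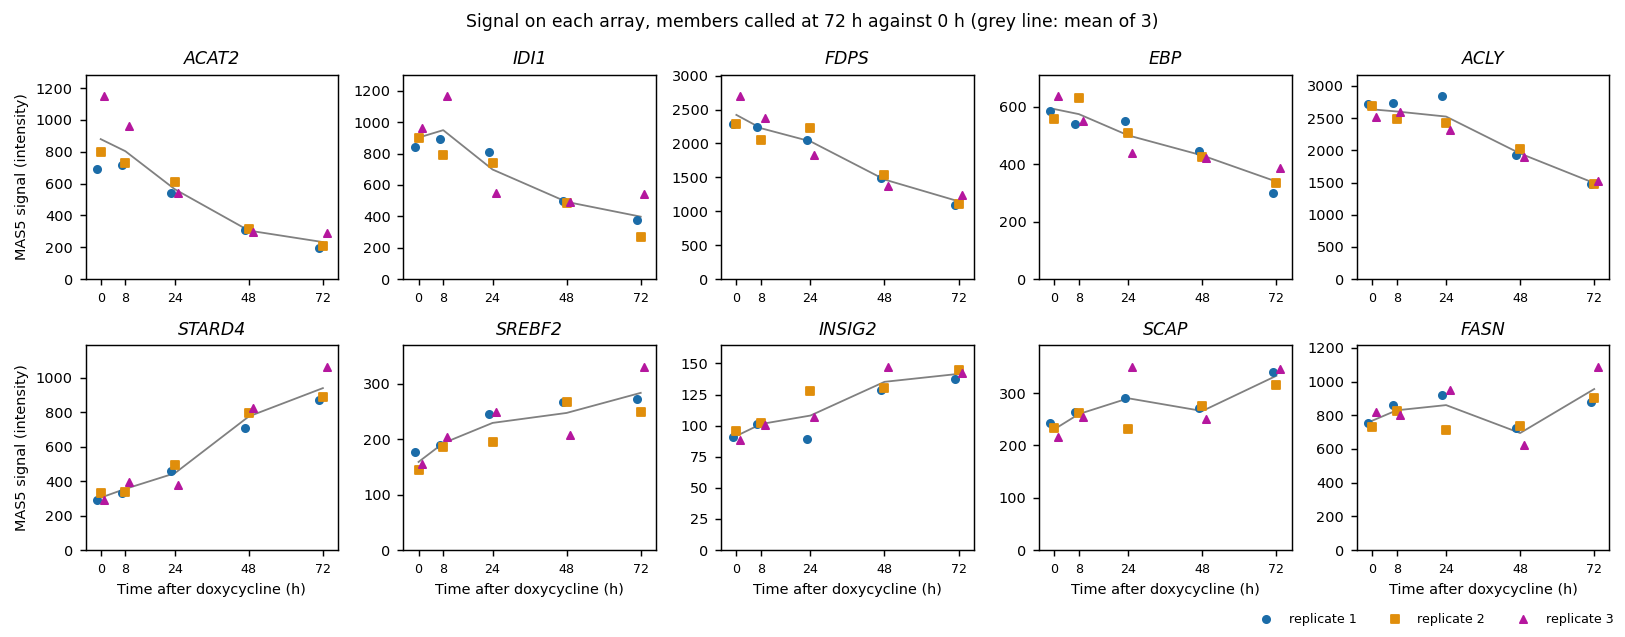
MAS5 signal (linear, arbitrary units) on each of the 15 arrays against time after doxycycline, for 5 genes lower and 5 genes higher at 72 h; symbols are replicates and the line joins the means of 3. ACAT2, IDI1, FDPS, EBP and ACLY went down between 24 h and 72 h while STARD4 rose from 445.0 to 938.5.

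Of the 5 genes of SREBP control, SREBF2, INSIG2 and SCAP rose. SREBF2 had 176.8, 144.8 and 155.0 at 0 h, 244.8, 194.5 and 248.6 at 24 h, 266.4, 267.4 and 208.2 at 48 h and 272.3, 248.9 and 329.4 at 72 h. Every array from 24 h on lay above the 0 h arrays. The log2 changes were 0.48 (standard error 0.12, limma adjusted p 0.014), 0.59 (0.12, 8.2e-04) and 0.77 (0.12, 3.7e-05). The 24 h call was lost without 0 h replicate 2 (0.43) or without 24 h replicate 1 or 3 (0.44 and 0.43). INSIG2, an endoplasmic reticulum anchor of SCAP, had 90.5, 96.0 and 88.6 at 0 h, 128.4, 130.4 and 146.8 at 48 h and 137.7, 144.7 and 142.4 at 72 h. It rose by 0.49 at 48 h (standard error 0.11, limma adjusted p 0.0013) and 0.55 at 72 h (0.11, 3.1e-04), without overlap. SCAP, the escort of the SREBP precursors, had 243.0, 232.3 and 216.5 at 0 h, 270.9, 275.3 and 250.6 at 48 h and 339.4, 314.4 and 345.0 at 72 h. It was called at 72 h (0.50, standard error 0.11, limma adjusted p 7.8e-04), and its change at 48 h was 0.19 (adjusted p 0.16). SREBF1 was dim and scattered, with 24.7, 34.3 and 18.8 at 0 h and 47.0, 44.3 and 21.3 at 72 h (0.33, limma adjusted p 0.24), and was called without 72 h replicate 3 (0.57, limma adjusted p 0.044).

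Among the transport genes STARD4, a soluble carrier that moves cholesterol between membranes, had the greatest rise of all 28 genes. Its signals were 291.3, 329.3 and 290.6 at 0 h, 333.1, 334.2 and 396.4 at 8 h and 460.6, 494.6 and 379.7 at 24 h. They were 705.9, 792.2 and 825.4 at 48 h and 867.2, 889.6 and 1058.6 at 72 h. Every later array lay above the 0 h arrays. The changes were 0.52 at 24 h (standard error 0.11, limma adjusted p 0.0032), 1.31 at 48 h (0.11, 3.2e-08) and 1.57 at 72 h (0.11, 9e-10), or 2.98-fold. NPC1 and NPC2, which export cholesterol from lysosomes, overlapped between 0 h and 72 h, with signals over all arrays of 39.5 to 58.4 and 49.7 to 84.8 and 72 h changes of 0.06 and -0.12.

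Of the lipogenic enzymes besides ACLY, FASN, the fatty acid synthase, was called higher at 72 h alone. It had 755.7, 729.3 and 816.8 at 0 h, 723.7, 734.6 and 625.6 at 48 h and 881.0, 902.0 and 1084.2 at 72 h. The 48 h arrays overlapped those at 0 h (-0.14, limma adjusted p 0.29), and the 72 h arrays lay above them (0.31, standard error 0.10, limma adjusted p 0.019). The 72 h call was lost without 72 h replicate 3 (0.21, limma adjusted p 0.10), without 0 h replicate 1 or 2 (0.30 and 0.27), and after centring of the arrays (0.19). ACACA, acetyl-CoA carboxylase, had 240.2 to 308.1 over all arrays with a 72 h change of 0.01, and FADS2, a fatty acid desaturase, had 133.2 to 234.1 with a change of -0.18; neither was called.

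Timing was read from the earlier times and from each step. At 8 h 0 of the 28 genes were called by limma, beside 0.45% of all genes, although CDK2 was already down by -1.16. Before adjustment 2 genes had a p under 0.05, MVK (0.38) and SREBF2 (0.26), both higher, and limma with array weights called 1. At 24 h 3 were called, ACAT2, SREBF2 and STARD4, beside 13.5% of all genes, and at 48 h 10 (35.7%), 5 higher and 5 lower, beside 44% of all genes, 26.3% higher and 17.7% lower. After centring 4 of the 28 were higher and 8 lower at 48 h, and higher genes made up 44.7% of all genes called in place of 59.8%. At 48 h the 10 were MVK, TM7SF2, INSIG2, SREBF2 and STARD4 higher and ACAT2, IDI1, FDPS, EBP and ACLY lower. Leaving out 24 h replicate 1 or replicate 3 reduced the 24 h count to 1, beside 8.71% and 8.65% of all genes. Leaving out 24 h replicate 2 raised it to 5, beside 11% of all genes. Over the whole time course the moderated F test called 11 genes (39.3%), beside 57% of all genes, and 17 without 72 h replicate 3. The share of all genes without that array is not given here, so the rise cannot be read as particular to these genes.

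From 8 h to 24 h 0 genes were called by limma, beside 5.78% of all genes, with 3 at a p under 0.05 before adjustment (STARD4 higher, ACAT2 and IDI1 lower) and 1 called with array weights. Leaving out 8 h replicate 3 or 24 h replicate 3 gave 1 call, beside 3.31% and 3.14% of all genes. From 24 h to 48 h 4 were called, beside 22.9%: STARD4 rose (0.78) and ACAT2 (-0.85), FDPS (-0.46) and ACLY (-0.36) fell. From 48 h to 72 h 4 were called, beside 10.7%: FASN rose (0.45) and FDPS (-0.35), EBP (-0.33) and ACLY (-0.38) fell. FDPS and ACLY thus fell in both of the later steps. The last count was 2 without 48 h replicate 1 or 2 or 72 h replicate 1 or 2, beside 6.34%, 5.57%, 8.28% and 9.75% of all genes. The EBP and FDPS calls were lost in each of these fits (EBP -0.25 to -0.35, FDPS -0.32 to -0.34). Without 72 h replicate 3 the count was 7, beside 6.51% of all genes. The EBP call was also lost without 48 h replicate 3 (-0.35, limma adjusted p 0.064) and after centring (-0.35, 0.051), and the FASN call without 72 h replicate 3 (0.36, 0.058). These comparisons share arrays, those with 0 h all sharing the same 3. With the replicate number as a block, INSIG1 (0.45, limma adjusted p 0.046) and NSDHL (-0.32, 0.035) were also called at 48 h against 0 h, and ACAT2 (-0.39, 0.047) at 72 h against 48 h.

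Several sterol genes read high on replicate 3. At 72 h replicate 3 was the highest of the 3 arrays for 24 of the 28 genes (85.7%), beside 39.1% of all genes, and at 8 h for 17 (60.7%), beside 41.5%. At 0 h it was the highest for 21 of the 28 (75%), beside 33.6%, and for 15 of 15 sterol enzymes. At 24 h and 48 h it was so for 7 (25%) and 10 genes (35.7%), beside 34.7% and 33.1% of all genes. At 24 h replicate 3 was instead the lowest array for 16 of the 28 genes, beside 4641 of all 11774. Of the 15 sterol enzymes it was the lowest for 11. It exceeded the mean of the other 2 arrays by over 0.5 on the log2 scale for 9 of the 28 genes at 72 h, beside 2.47% of all genes, and for 6 at 8 h, beside 2.5%. What sets these arrays apart was not tested.

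The genes shown next were picked after their values were seen, for their height on this array. HMGCS1, the synthase that makes HMG-CoA, had 273.7, 303.6 and 419.9 at 0 h, 260.7, 267.6 and 461.3 at 8 h, 249.4, 300.7 and 303.8 at 48 h and 185.2, 203.8 and 440.3 at 72 h. SQLE, squalene epoxidase, had 1134.2, 1165.6 and 1241.2 at 0 h, 1059.9, 1062.6 and 1588.1 at 8 h, 861.6, 900.2 and 1139.8 at 48 h and 668.4, 756.7 and 1305.5 at 72 h. For both, replicates 1 and 2 at 72 h lay below every 0 h array, and replicate 3 lay above. MSMO1, the sterol C4 methyl oxidase, had 990.0, 1036.8 and 1043.3 at 0 h, 1142.5, 1299.6 and 1381.0 at 48 h and 808.7, 898.4 and 1407.1 at 72 h. SC5D, the sterol C5 desaturase, had 411.3, 408.7 and 465.7 at 0 h, and 287.2, 312.9 and 570.8 at 72 h. INSIG1, the sterol-responsive partner of INSIG2, had 361.3, 370.3 and 375.8 at 0 h, 382.2, 375.0 and 674.2 at 8 h, 518.5, 576.4 and 431.0 at 24 h, 475.6, 518.5 and 538.9 at 48 h and 261.2, 315.5 and 507.0 at 72 h. All 5 were uncalled at 72 h with all arrays, at -0.33 (HMGCS1), -0.43 (SQLE), -0.02 (MSMO1), -0.19 (SC5D) and -0.08 (INSIG1).

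**Figure D3:**
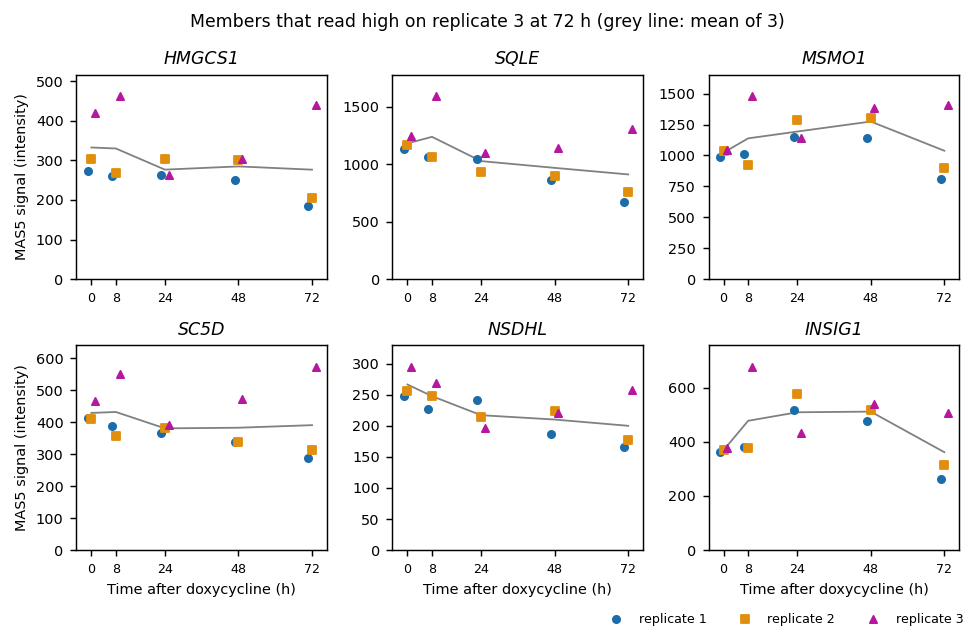
MAS5 signal (linear, arbitrary units) on each array against time after doxycycline for 6 genes chosen after their values were seen; symbols are replicates and the line joins the means of 3. At 72 h replicate 3 (triangles) lies above both other arrays in every panel, as for SQLE at 1305.5 against 668.4 and 756.7.

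Without replicate 3 at 8 h and 72 h, an alternative added after the data were seen, 20 of the 28 genes were called at 72 h, 6 higher and 14 lower, beside 55.7% of all genes called and 22.8% lower. Of the sterol enzymes 12 were then lower and 1 higher. Genes high on 72 h replicate 3 move down in this fit by its construction. It also kept 0 h replicate 3, the highest 0 h array for 15 of 15 sterol enzymes, which widens their falls. HMGCS1 had a change of -0.71 (limma adjusted p 3.4e-04), SQLE -0.72 (2e-05), SC5D -0.49 (0.0021), MSMO1 -0.26 (0.019), HSD17B7 -0.25 (0.046) INSIG1 -0.35 (0.011) and SREBF1 0.57 (0.046), and FASN was no longer called (0.21, 0.098). HSD17B7, a sterol ketoreductase, had 480.1, 511.9 and 607.5 at 0 h and 491.9, 401.8 and 499.5 at 72 h, with -0.19 and no call in the fit on all arrays. INSIG1 was then higher at 24 h (0.44) and 48 h (0.45, limma adjusted p 8.6e-04) and fell between 48 h and 72 h by -0.80 (1.2e-04). MSMO1 likewise was higher at 48 h (0.31, 0.0036) and lower at 72 h. The 24 h and 48 h changes of INSIG1 and the 48 h change of MSMO1 were the same with all arrays, and not called there. Their calls here came only through a smaller estimated spread, which follows from dropping arrays that deviated on these genes. In that fit 10 genes were called between 48 h and 72 h, beside 8.19% of all genes. The median 72 h change of the 28 genes was -0.25 in it, against -0.10 with all arrays. With every replicate 3 array left out, at 0 h too, the median was -0.15.

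Several genes lie on more than 1 probe set. Tested singly, 27 of the 54 probe sets past the filter were called at 72 h, 7 higher and 20 lower, beside 46.4% of all probe sets. The shares of all probe sets higher and lower are not given here. The 27 are not separate genes, since some genes have several probe sets among them. All 3 of ACLY (-1.0, -0.97 and -0.81) and of EBP (-0.83, -0.78 and -0.64) were called lower, and both of NSDHL (-0.54 and -0.41). Elsewhere the call depended on the probe set. The other probe set of HMGCS1 was called lower at -0.88, and 2 further probe sets of SQLE at -0.56 and -0.48, where the brightest one (-0.43) and a dim one (-0.34) were not. The second probe set of DHCR7 (-0.35) was not called beside the first (-0.37). The probe sets of LSS (0.19, 0.27 and -0.24), SC5D (-0.19 and 0.20), MVK (0.22, -0.12 and -0.10) and INSIG1 (-0.34, -0.08 and 0.04) differed in sign, with none called. On that HMGCS1 probe set the signals were 198.1, 122.1 and 314.3 at 0 h and 78.8, 124.2 and 102.7 at 72 h, so that replicate 3 was not the highest at 72 h.

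For SCD, IDI1 and SREBF2 some probe sets were called at 72 h while another was not and had a change of the opposite sign. SCD, the stearoyl-CoA desaturase, is represented by its brightest probe set, with 1650.0, 1718.5 and 2011.2 at 0 h and 1705.2, 1653.9 and 2484.8 at 72 h, a change of 0.10 that was not called. Its other 3 probe sets were all called lower (-0.50, -0.88 and -0.97), and with the mean of probe sets in place of the brightest the change was -0.56 (limma adjusted p 6.8e-04). The one at -0.50 had 608.8, 624.0 and 741.8 at 0 h and 426.0, 455.5 and 502.9 at 72 h, without overlap. A direction for SCD therefore depends on the probe set. IDI1 fell on its 2 bright probe sets (-1.20 and -1.18) and not on its 2 dim ones (0.01 and 0.32), and SREBF2 rose on 2 (0.77 and 0.53) and not on the third (-0.12). With the mean of probe sets their 72 h changes were -0.51 and 0.39, both still called. Of the probe sets printed here, 3 of IDI1, the one at -0.88 of SCD, the one of HSD17B7 and that of ICMT are of the x_at class, whose probes can cross-hybridise with similar transcripts.

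**Figure D4:**
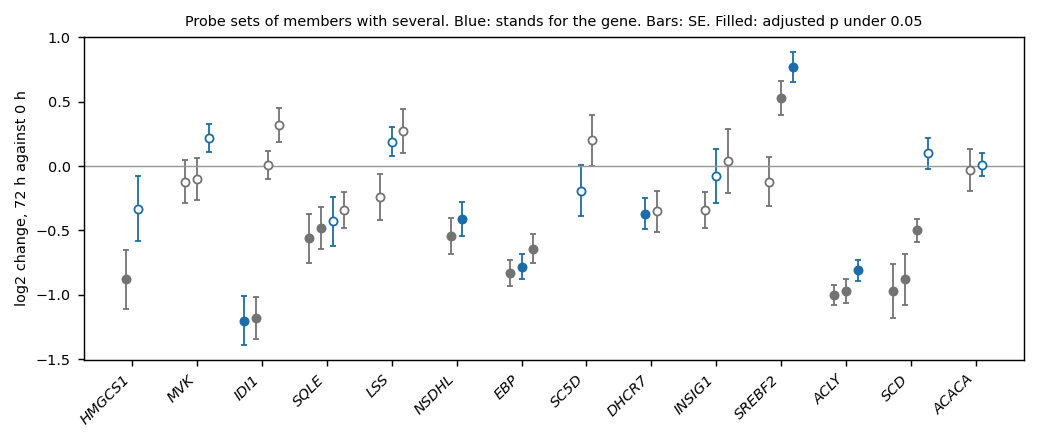
Log2 change at 72 h against 0 h of every probe set past the filter, for genes with several; bars are standard errors, blue is the probe set that stands for the gene, and filled points have an adjusted p under 0.05 over all probe sets. The probe sets of ACLY and EBP lie together, and those of SCD spread from -0.97 to 0.10.

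Promoter sequence was available for 28 of the 32 genes from RefSeq (GRCh38.p14, 250 bases before to 50 after the annotated start). It was searched on both strands for TCACNCCAC, a form of the sterol regulatory element that SREBP binds, and CCAAT, the box of its partner NF-Y. A match is a description of the letters. TCACNCCAC was found in 1 of the 28, SREBF2, beside 1.15% of 27305 promoters, and CCAAT in 18 (64.3%), beside 35.7%. CCAAT was found in 5 of 7 promoters of genes lower at 72 h, 3 of 5 of genes higher and 9 of 13 of genes not called, so that genes of either direction held it. The 250 bases before the start, 5′ to 3′ on the gene's strand, are given for 3 genes that fell and 2 that rose, to show the boxes that both hold. Capitals mark the matches on either strand (ATTGG is CCAAT on the other strand).
FDPS (chr1:155308616-155308865, + strand): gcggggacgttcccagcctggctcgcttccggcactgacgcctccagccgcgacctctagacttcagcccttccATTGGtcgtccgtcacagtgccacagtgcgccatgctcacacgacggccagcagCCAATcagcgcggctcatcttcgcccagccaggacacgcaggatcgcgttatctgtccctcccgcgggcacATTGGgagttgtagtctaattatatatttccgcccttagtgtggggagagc
EBP (chrX:48521558-48521807, + strand): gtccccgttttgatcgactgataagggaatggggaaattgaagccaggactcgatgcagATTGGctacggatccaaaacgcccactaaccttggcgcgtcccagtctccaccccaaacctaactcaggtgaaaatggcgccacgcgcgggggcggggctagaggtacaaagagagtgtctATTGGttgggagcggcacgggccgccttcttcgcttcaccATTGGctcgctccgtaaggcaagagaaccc
ACLY (chr17:41919023-41919272, - strand): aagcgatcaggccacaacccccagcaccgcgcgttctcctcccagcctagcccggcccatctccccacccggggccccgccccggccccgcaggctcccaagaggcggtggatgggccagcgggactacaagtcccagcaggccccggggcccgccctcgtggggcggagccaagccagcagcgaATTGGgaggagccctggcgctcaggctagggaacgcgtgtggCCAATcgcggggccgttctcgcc
STARD4 (chr5:111512536-111512785, - strand): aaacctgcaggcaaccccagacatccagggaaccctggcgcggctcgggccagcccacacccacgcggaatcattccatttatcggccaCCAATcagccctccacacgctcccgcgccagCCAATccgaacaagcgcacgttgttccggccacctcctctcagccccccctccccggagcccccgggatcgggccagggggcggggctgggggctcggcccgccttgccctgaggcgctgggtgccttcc
SREBF2 (chr22:41832855-41833104, + strand): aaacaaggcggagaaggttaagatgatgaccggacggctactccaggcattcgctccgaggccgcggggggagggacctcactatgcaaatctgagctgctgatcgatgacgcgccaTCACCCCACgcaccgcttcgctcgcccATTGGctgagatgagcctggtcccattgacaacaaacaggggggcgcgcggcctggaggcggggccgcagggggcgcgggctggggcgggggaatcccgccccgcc
FDPS and EBP hold 3 CCAAT matches each, ACLY and STARD4 hold 2, and SREBF2 holds 1 beside its sterol element match at -133 from the start, which do not overlap.

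Other genes of sterol and lipid metabolism were counted from 6 further lists, read against the 32.8% of all genes higher, 22.7% lower and 55.5% called at 72 h. At that time, 8 of 22 other SREBP-linked and lipogenic genes were lower and 4 higher (54.5% called), with a median of -0.17. After centring 11 were lower and 2 higher, after quantile normalisation 11 and 3, and without replicate 3 at 8 h and 72 h 9 and 3. The shares of all genes moved as well, for this list and those below. Centring gave 3250 lower and 2735 higher of 11774 genes at 72 h, and quantile normalisation 2782 and 3558 of 11771. Without replicate 3 at 8 h and 72 h, 22.8% of all genes were lower and 32.9% higher. ELOVL2, an elongase of polyunsaturated fatty acids, went from 182, 191.5 and 164.8 at 0 h to 42.7, 49.2 and 68.7 (-1.51, limma adjusted p 2.4e-08). TMEM97, a sterol-responsive membrane protein that binds NPC1, fell from 1272.4, 1331.7 and 1370.5 to 740.9, 686.2 and 642.8 (-0.93, 2.3e-08 by limma), whereas FADS3 rose from 37, 35.4 and 37.1 to 110.9, 97.5 and 71.5 (1.04, 8e-06 by limma). The arrays at 72 h did not overlap those at 0 h for any of the 3.

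On the isoprenoid branch beyond FDPS, 4 of 12 genes were lower and 3 higher (58.3% called), and without replicate 3 at 8 h and 72 h 5 and 3. ICMT, which methylates prenylated proteins, fell from 340, 412.3 and 391.7 to 130.1, 134.9 and 148.5 (-1.37, limma adjusted p 7.9e-10). COQ2 and PDSS1, which build ubiquinone, fell by -1.13 and -0.70 (limma adjusted p 8.4e-08 and 1.1e-05). Of 7 genes of SREBP proteolysis and sterol-regulated degradation 3 were lower and 2 higher (71.4% called), as many as without those arrays, and after centring 3 and 1. ERLIN1 (-0.90) and PAQR3 (-0.73, or -0.45 with the mean of its probe sets) fell, and RNF139, a ubiquitin ligase of the endoplasmic reticulum, rose (0.62), with limma adjusted p of 1.6e-06, 1.2e-04 and 2.4e-04.

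Of 12 LXR, oxysterol and efflux genes 7 were tested. Of these 3 were higher and 1 lower (57.1% called), and without those arrays 2 and 1. ABCA1, the pump that loads cholesterol onto apolipoproteins, had 15.4, 16.1 and 7.8 at 0 h, 90.8, 79.3 and 69.7 at 48 h and 72.9, 110.9 and 45.6 at 72 h (1.62 at 72 h, limma adjusted p 2.6e-06). ABCG1, a second sterol exporter, had 7.7, 8 and 5.7 at 0 h and 59.6, 66.1 and 23.9 at 72 h (1.44, 1.9e-05 by limma). With a pseudocount of 1 another probe set of ABCG1 became its brightest by mean log2, with a change of 0.85 that was not called (limma adjusted p 0.062), whereas on the same probe set as here that pseudocount gave 2.53 (1.8e-05). Both genes were near background at 0 h, with means of 13.1 and 7.1, below the filter near 16.6. They entered the test through later arrays, where they were high, and a dim gene that did not rise would not have entered. The filter thus favours risers among dim genes. The arrays of ABCA1 and ABCG1 at 48 h and 72 h lay above all their arrays at 0 h. For both, replicate 3 was the lowest array at 72 h. SOAT1, which esterifies cholesterol for storage, fell from 693.6, 739.1 and 757.8 to 344.9, 322.4 and 384.4 (-1.03, limma adjusted p 2.2e-08).

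Of 13 sterol and lipid carriers and droplet genes 6 were higher and 3 lower (69.2% called), without those arrays 5 and 3, and after centring or quantile normalisation 4 and 3. GRAMD1A, a carrier of plasma membrane cholesterol, rose from 131.2, 110.4 and 109.8 to 343.5, 312.9 and 352.5 (1.41, limma adjusted p 2.8e-08), and OSBPL2 rose by 0.68 (2.1e-04). With the mean of probe sets these changes were 0.85 and 0.37, both called. LIPA, the lysosomal acid lipase, was lower by -0.80 (2.2e-06), but most of its fall came early. Its mean signal dropped from 387.3 on the 0 h arrays to 187.1 by 8 h. The lowest mean, 142.5, belonged to the 24 h arrays, and the 48 h and 72 h means were 214.6 and 216.4. Of the 13 genes in this list limma called 1 lower after 8 h, beside 42 of all 11774 genes. Of 13 genes of fatty acid oxidation 7 were higher and 1 lower at 72 h (61.5% called), and 9 higher and 0 lower by limma at 48 h, when 26.3% of all genes were higher and 17.7% lower. Without those arrays 10 were higher at 72 h, beside 32.9% of all genes. After centring 6 were higher at each of these times, beside 2069 of all 11774 genes at 48 h and 2735 at 72 h. CPT1C (0.90), HADHA (0.73) and PPARA (0.58) rose at 72 h, with limma adjusted p of 3.1e-07, 4.7e-07 and 0.0053. HADHA, a subunit of the mitochondrial trifunctional protein, had 547.8, 569 and 652 at 0 h and 1045.3, 948.4 and 972.4 at 72 h. For the 18 genes named from these lists, the 72 h change without replicate 3 at 8 h and 72 h was 0.79 to 1.23 times that with all arrays, and all 18 were still called.

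**Figure D5:**
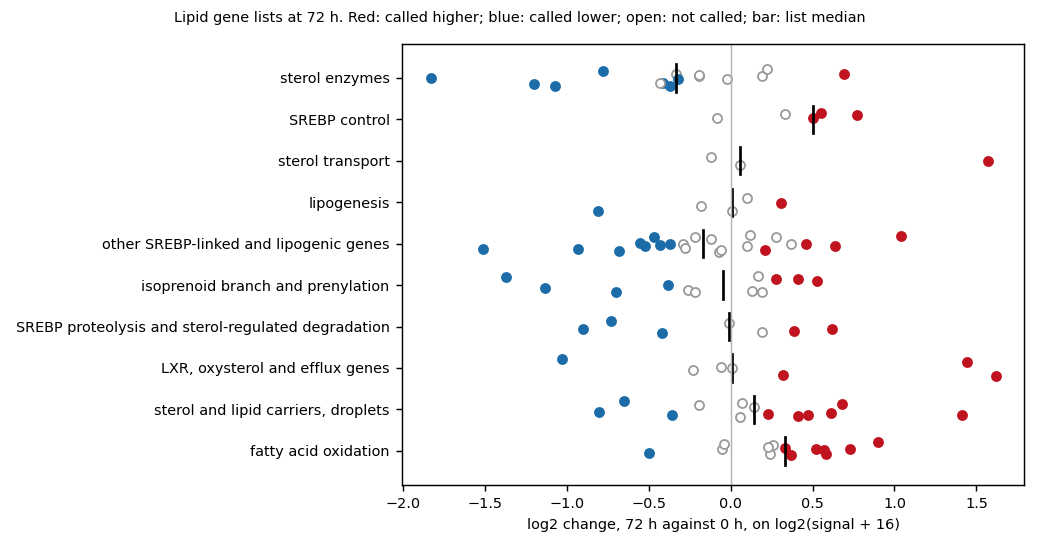
Log2 change at 72 h against 0 h of each tested gene in the 4 role groups and the 6 further lists, on log2(signal + 16); red is higher and blue lower at an adjusted p under 0.05, open is not called, and the bar is the list's median. The medians run from -0.33 for sterol enzymes to 0.50 for SREBP control, beside 0.10 for all genes.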

How the data were processed

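RNA from 15 samples was measured on 15 arrays. Per the labels, the authors labelled 4 µg of RNA and obtained MAS5 signal intensity values, and the submitters' processing notes name MAS5 and GCOS without versions. The table had 54675 probe sets: 41091 with a single gene name, 1801 with several, 11721 with none and 62 controls. Values were taken as log2(intensity + 16). A probe set entered when its mean log2 value over all 15 arrays reached the median over non-control probe sets (signal near 16.6), as 27307 did. The brightest one naming a gene alone stood for it. Because the filter used the later arrays too, a dim probe set that rose could enter where one that stayed dim did not. One limma 3.58.1 fit (lmFit, eBayes with trend) held all 5 times, in R 4.3.3 with Benjamini-Hochberg adjustment over 11774 genes and a threshold of 0.05. Per-array values are printed for genes called in a comparison, for those that change sign or whose probe sets disagree, and for up to 3 genes of each further list with the greatest called changes. HSD17B7, LSS, HMGCS1, SQLE, MSMO1, SC5D, INSIG1 and SREBF1 were shown also for how they change without single arrays, after their values were seen. The genes and lists were chosen with earlier results of these data known. Alternatives changed the pseudocount, scaling, filter, probe sets per gene, variance prior, array weights, arrays fitted, replicate block and threshold, and left out arrays. The labels do not say that replicate numbers pair arrays. Residuals of same-numbered arrays correlated above 0.1 in all 3 pairs between 0 h and 48 h (0.12 to 0.21) and between 48 h and 72 h (0.12 to 0.35). Between 0 h and 72 h they did so in 2 of 3 pairs (0.06 to 0.23). Only where all 3 pairs passed were the numbers taken to pair arrays. Even there the main fit, with its counts and p-values, held no replicate block, which was fitted only as an alternative. This limit was a working rule and does not show that same-numbered arrays of other times are unpaired. The number of arrays limits the precision. Python 3.11.15, pandas 2.3.3 and matplotlib 3.10.9 made tables and figures.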

Additional observations from a re-analysis of the deposited data

Results flagged for a closer look

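The log2 change of FASN against 0 h had opposite signs at 48 h (-0.14, not called, limma adjusted p 0.29) and 72 h (0.31, 0.019), and the step between the 2 times was 0.45 (limma adjusted p 0.010). Without replicate 3 at 8 h and 72 h the step was 0.36 (limma adjusted p 0.049), without 72 h replicate 3 alone it was 0.36 (0.058), and without all replicate 3 arrays 0.28 (0.079).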

How the results depend on the processing

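With array weights, 1 of the 28 genes was called at 8 h, 1 from 8 h to 24 h, 8 from 24 h to 48 h, 8 from 48 h to 72 h and 18 over the time course. The share of all genes called rose too, to 0.866%, 6.38%, 30.8% and 15.8% in the first 4 of these comparisons, and is not given for the time course. Fitting only the arrays compared gave 5 at 24 h and 1 from 8 h to 24 h, beside 15.6% and 2.89% of all genes. An absolute log2 change of at least 1 in addition left 0 at 24 h, 2 at 48 h, 4 at 72 h, 0 in each of the last 2 steps and 5 probe sets. The share of all genes under that added threshold is not given here, so these counts cannot be read as many or few. With the replicate number as a block, 1 was called from 8 h to 24 h, 12 at 48 h and 5 from 48 h to 72 h. The shares of all genes were 8.14%, 47.4% and 14.7%. Only in the last 2 of these comparisons did residuals of same-numbered arrays correlate above 0.1 in all 3 pairs. The mean of probe sets gave SCD -0.56 at 72 h, against 0.10 and not called with the brightest one.

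Over the fits that left out 1 array or several, including the fit without all replicate 3 arrays, the counts were 0 at 8 h, 1 to 6 at 24 h, 8 to 16 at 48 h and 11 to 20 at 72 h. From 8 h to 24 h they were 0 to 3, from 24 h to 48 h 4 to 7, from 48 h to 72 h 2 to 10, over the time course 10 to 21, and 23 to 35 for probe sets. The shares of all genes called were 0.17% to 0.747% at 8 h, 8.54% to 18.7% at 24 h, 37.3% to 48.8% at 48 h and 49.5% to 55.7% at 72 h. For the 3 steps they were 3.14% to 4.88%, 16% to 28.5% and 5.57% to 10.5%. For the time course and the probe sets these shares are not given, so those ranges cannot be set against all genes. Other than at 8 h, each highest count came without 1 or more replicate 3 arrays. For dim probe sets (TM7SF2, ABCA1, ABCG1) the size of a change moved with the pseudocount. A pseudocount of 1 or 64 on unchanged probe sets, added after the data were seen, kept each count of the 28 genes within 1.5 times.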
